A study of Homo sapiens with 12 samples.

Results

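The 52 genes described here act in the repair of DNA breaks and of crosslinks between the DNA strands, and were taken by gene symbol from an expression table of 35337 genes. Poly(A) RNA was measured with CEL-seq2, a method that sequences the 3′ ends of transcripts, in EndoC-βH3 cells, a line with beta cell properties derived from human fetal pancreas. The line had been immortalised with hTERT and with SV40 large T antigen, a viral protein that blocks p53 and RB, and it carries CreER, a recombinase that becomes active in the presence of 4-hydroxytamoxifen (4-OHT). Both groups had the label genotype WT and came from this one line. The non-senescent group held 6 libraries of control cells, which kept hTERT and large T antigen. The senescent group held 6 libraries of cells given 4-OHT for 3 weeks, by which both introduced genes are removed. Loss of large T antigen, loss of hTERT, exposure to 4-OHT and recombinase activity went together in this design, so their effects cannot be told apart. The sample titles carry a letter that was taken as the batch, with 2 libraries of each group in batch A and 4 of each in batch B. Nothing in the labels says that the libraries of a group came from separate cultures, so p-values measure only the spread between these libraries, which may be technical.

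A DNA end can be repaired in several ways. In homologous recombination the end is resected to a single strand, which BRCA1, BARD1, PALB2 and BRCA2 help to prepare for pairing with the sister chromatid, a template that exists only after replication. In the Fanconi pathway a core complex of proteins attaches ubiquitin to the FANCD2–FANCI pair where a crosslink has stalled replication. In non-homologous end joining the Ku proteins and a ligase complex seal ends without a template. Many genes of recombination, but fewer of end joining, are transcribed in S phase under E2F factors, which RB holds in check. Mature beta cells rarely divide, so most of them lack the sister chromatid that recombination needs.

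Batch A libraries held 8873569 to 17106776 reads and batch B libraries 4672924 to 7063264, and 13847 genes with a mean normalised read count (reads divided by the library's size factor) of at least 5 were tested. Of these, 1632 were lower and 1605 higher in senescent cells; with every library scaled to the same total the counts became 2090 and 1226, the share of higher genes among the calls 37.0% in place of 49.6%, and the median log2 fold change of all genes -0.09 in place of 0.012. Beta cell markers summed to 526910 to 662744 in non-senescent and 671547 to 869925 in senescent cells. Most of each sum was CHGA, at a mean of 553090 in non-senescent and 646103 in senescent cells, beside 19853 and 99547 for INS. By limma, 5 of 14 markers were called higher (MAFA, INS, IAPP, G6PC2 and PDX1) and 0 lower, against 11.6% and 11.8% of all genes. At an unadjusted p under 0.05 in limma 2 were lower, and edgeR and DESeq2 called 0 and 0 lower. Somatostatin RNA (SST), a delta cell hormone, was also high, at a mean of 206128 in non-senescent and 128684 in senescent cells. Acinar markers summed to 33.9 to 58.4 in non-senescent and 144 to 255 in senescent cells, nearly all of it CPA1, while ductal markers summed to 242 to 379 and 79.9 to 160. Fibroblast and stromal markers summed to 17.8 to 126 and 13.9 to 54.9, with COL3A1 at 86.7 and 97.9 in the non-senescent libraries B2 and B3, endothelial markers to 4.77 to 24.8 and 3.74 to 14.5, and leukocyte markers to 23.0 to 51.1 and 17.5 to 42.0. CPA1, the only tested acinar gene, was called higher (log2 fold change 2.25). KRT19, the only tested ductal gene and nearly all of the ductal sums, was called lower (-1.35). Of the 5 tested genes of the fibroblast, endothelial and leukocyte lists, PTPRC, a leukocyte marker with 94 reads in all, was called lower. PDGFRB, VWF and CD3E had 0 reads in every library. The part of these markers in the results on repair genes was not tested.

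Most of the 52 break repair and Fanconi genes were lower in senescent cells. These genes, like the lists compared below, were chosen with earlier results of these data known. Of 67 further genes of the same pathways, 27 (40.3%) were called lower. All 52 passed the filter on low values, and 31 of them (59.6%) passed the limits for a call (limma adjusted p under 0.1, fold change over 1.5) with lower levels, against 11.8% of all genes tested. Only WRN and LIG4 were called higher, against 11.6% of all genes, and neither call held in every alternative processing. Of the other 19 genes, 7 had an adjusted p under 0.1 with a smaller fold change and 12 had a larger adjusted p. The median log2 fold change of the 52 genes was -0.98, and by batch -1.06 (A) and -0.83 (B), beside 0.012 for all genes tested. Of the 31 calls, 26 were made in every alternative in which the gene was tested, and the 5 others were RAD51B, XRCC2, FANCM, XRCC4 and PRKDC.

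The fall was visible in single libraries. For 21 genes, all of them called lower, every senescent library lay below every non-senescent one, against 5.57% of all genes, and for 0 genes did every senescent library lie above, against 4.61%. Within each batch taken separately, 27 of the 52 genes had all senescent libraries below the non-senescent ones in both batches, against 11.9% of all genes, and 1, TP53BP1, had them above in both, against 11.9%. Reads of the 52 genes together made up 1448 to 1659 ppm of a non-senescent library and 965 to 1064 ppm of a senescent library, so these ranges did not overlap. Proliferation markers fell with them: all 13, from MKI67 to PCNA, were called lower, and their summed values were 8781 to 10655 in non-senescent and 1452 to 1872 in senescent cells. In RNA of whole cultures, fewer cells in S and G2 phase and less repair gene RNA in each cell cannot be told apart.

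**Figure D1:**
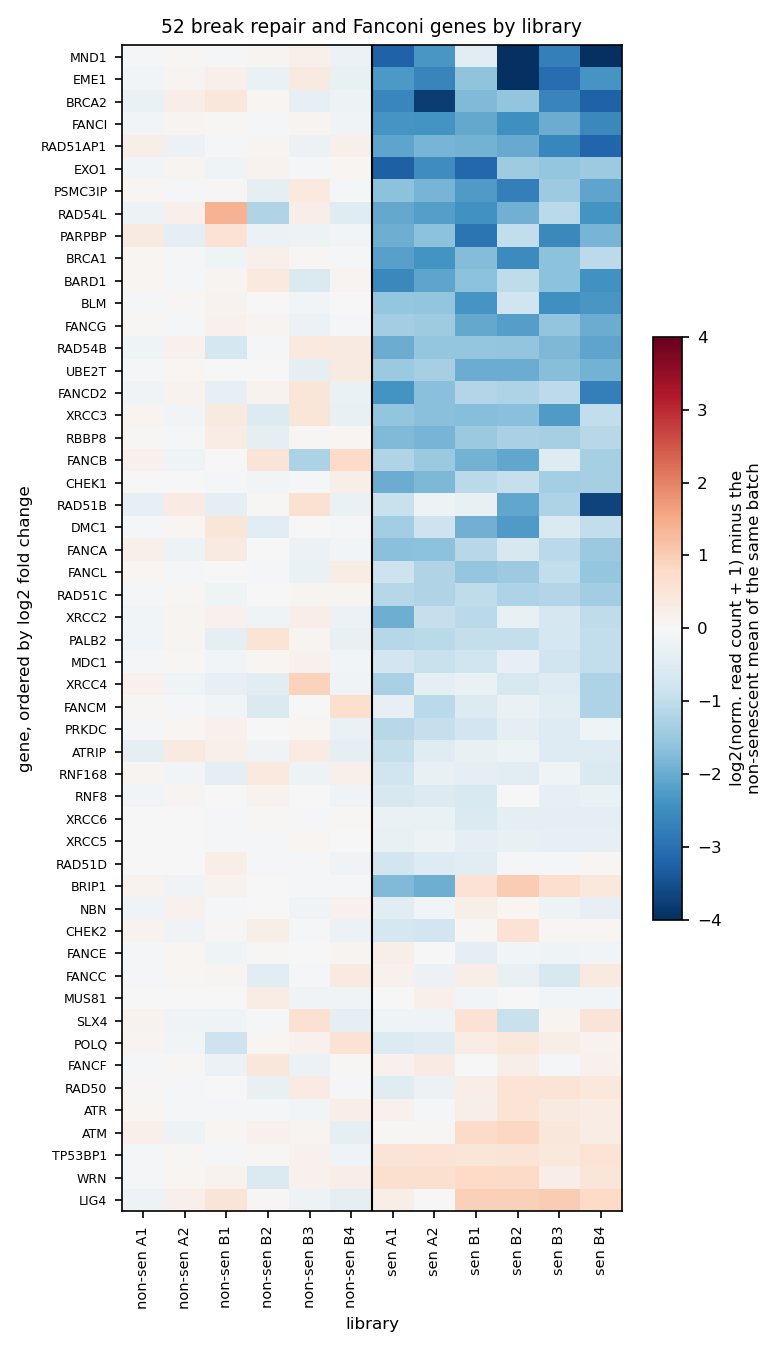
Heat map of the 52 genes (rows, ordered by log2 fold change) in the 12 libraries (columns), coloured by log2(normalised read count + 1) minus the non-senescent mean of the same batch, with values past the ends of the scale in the end colours. Blue, for lower values, fills the 6 senescent columns for most of the 31 genes called lower, while BRIP1 is blue in senescent libraries of batch A and red in those of batch B.

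Promoter sequences were available for 46 of the 52 genes, as 250 bases before to 50 after the RefSeq start on GRCh38.p14. Of these, 3 are shown as examples of promoters with and without a searched word. The E2F words TTTCCCGC, TTTCGCGC, TTTGCCGC and TTTGGCGC, searched on both strands, were in at least 1 listed promoter of 9 of the 46 genes (19.6%), of 7 of the 28 called lower (25%) and of 2 of the other 18 (11.1%), beside 6.46% of the 10388 tested genes with a promoter and 3.99% of all 27305 genes with one. A gene can have several listed promoters, and was counted if any of them held a word. The 7 were XRCC2, MND1, PSMC3IP, DMC1, EXO1, FANCA and FANCD2, and the 2 were FANCC and XRCC6. The word TTTGAA, the core of the cell cycle element CHR, was counted in this way for 15.2% of the 46 genes and 13.8% of the tested genes, and CCAAT for 52.2% and 43.5%. These are matches of letters, and binding of a factor was not measured. The promoters below are those of MND1 and EXO1, the genes called lower with the largest falls among those holding an E2F word. Beside them is that of TP53BP1, which was not called and holds none. MND1 and EXO1 were picked for holding a word, so the display cannot show whether genes that fell share it. EME1, BRCA2 and RAD51AP1 had larger falls than EXO1 and hold no E2F word in a listed promoter. Each promoter is written 5′ to 3′ on the gene's strand, with E2F words in capitals.
MND1, chr4:153344399-153344698, plus strand: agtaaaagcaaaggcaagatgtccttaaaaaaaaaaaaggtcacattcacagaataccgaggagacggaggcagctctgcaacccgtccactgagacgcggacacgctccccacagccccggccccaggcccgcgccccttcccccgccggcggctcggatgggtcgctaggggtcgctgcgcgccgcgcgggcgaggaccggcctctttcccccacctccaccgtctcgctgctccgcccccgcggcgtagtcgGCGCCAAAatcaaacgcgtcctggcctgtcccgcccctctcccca
EXO1, chr1:241847954-241848253, plus strand: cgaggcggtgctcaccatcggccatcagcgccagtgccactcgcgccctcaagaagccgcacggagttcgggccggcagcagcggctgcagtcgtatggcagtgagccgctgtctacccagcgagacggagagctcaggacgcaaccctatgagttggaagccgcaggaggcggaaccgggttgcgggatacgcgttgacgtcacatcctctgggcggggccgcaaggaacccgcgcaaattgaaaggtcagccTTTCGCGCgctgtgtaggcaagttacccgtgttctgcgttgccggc
TP53BP1, chr15:43510591-43510890, minus strand: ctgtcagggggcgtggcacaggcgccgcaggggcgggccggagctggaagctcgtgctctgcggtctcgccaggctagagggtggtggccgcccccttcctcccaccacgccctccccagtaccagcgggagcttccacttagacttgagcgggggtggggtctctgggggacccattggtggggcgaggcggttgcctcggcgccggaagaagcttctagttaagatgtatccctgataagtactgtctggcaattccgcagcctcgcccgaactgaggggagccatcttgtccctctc
In MND1 the word TTTGGCGC lies on the opposite strand and begins 5 bases downstream of the start, and in EXO1 the word TTTCGCGC begins 4 bases downstream of it. For a gene with several listed promoters, the one with the most E2F words is shown. The other listed promoter of MND1 holds the same word upstream of its start, and the other one of EXO1 holds no E2F word.

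BRCA1, BRCA2 and their partners made up 5 of the genes, of which 4 were called lower. Calls by role, here and in the paragraphs that follow, stand beside 11.8% lower and 11.6% higher among all genes tested. BRCA1 (GRCh38 chromosome 17, 43044295 to 43170245), a ubiquitin ligase subunit that promotes resection, had its lowest, median and highest normalised read counts at 370.3, 417 and 493 in the 6 non-senescent libraries and at 72.4, 108 and 209 in the 6 senescent ones, and 3 values per group are given in this order for the genes that follow. The groups did not overlap in either batch, and the level was 3.80-fold lower (log2 -1.93, SE 0.19, limma adjusted p = 3.5e-07). BRCA2 (GRCh38 chromosome 13, 32315086 to 32400268), which acts on the resected strand, was at 31.7, 47.3 and 76.8 in non-senescent and 1.81, 6.70 and 17.8 in senescent cells, again without overlap. Its log2 fold change of -2.61 (SE 0.33, limma adjusted p = 7.0e-06) was the largest of this group, although it shrank to -1.84 with a pseudocount of 8. BARD1, the obligate partner of BRCA1, was at 46.8, 75.5 and 92.2 in non-senescent and 12.5, 19.6 and 34.6 in senescent libraries, without overlap and with a log2 fold change of -1.90 (SE 0.25, limma adjusted p = 9.7e-06). PALB2, which bridges BRCA1 to BRCA2, was 1.96-fold lower (log2 -0.97, SE 0.17). The helicase gene BRIP1, whose product binds BRCA1, was the one member of the group without a call (log2 -0.17, SE 0.32, limma adjusted p = 0.72), and its batches moved in opposite directions, as described further on.

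The 9 paralogs and cofactors of strand exchange included 8 called lower. RAD51AP1, a stimulator of strand invasion, was at 42.9, 98.7 and 127 in non-senescent and 10.8, 15.2 and 29.1 in senescent libraries. All senescent values were below all non-senescent ones, and the log2 fold change was -2.28 (SE 0.23, limma adjusted p = 4.3e-07). RAD54L, a motor protein of strand exchange, had few reads (143 over the 12 libraries), and lay at 4.13, 17.7 and 30.1 in non-senescent and 1.21, 3.34 and 5.39 in senescent libraries. Its groups overlapped through the non-senescent library B2, with a log2 fold change of -2.01 (SE 0.42, limma adjusted p = 0.0011). PARPBP, a restrainer of recombination, was at 42.9, 46.9 and 78.3 in non-senescent and 6.06, 13.6 and 26.2 in senescent libraries without overlap (log2 -1.99, SE 0.30, limma adjusted p = 4.9e-05). The relative of RAD54L named RAD54B was lower by 3.38-fold.

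Of the 5 paralogs in this group, XRCC3, RAD51B, RAD51C and XRCC2 were called lower, with log2 fold changes of -1.64 (SE 0.23), -1.40 (SE 0.49), -1.19 (SE 0.081) and -0.98 (SE 0.21). RAD51C was measured most precisely of these, at 607, 731 and 769 in non-senescent and 263, 312 and 342 in senescent libraries, and fell by batch with log2 fold changes of -1.17 (A) and -1.20 (B). RAD51B had 152 reads in all and 0 in the senescent library B4, which allows up to 3.74 normalised read counts there, and its value without that library was -0.96. Its call was lost in batch A alone (log2 -0.55) and without the batch term, as was that of XRCC2 without the batch term. The fifth paralog, RAD51D, lay at 208, 278 and 359.9 in non-senescent and 126, 254 and 310.1 in senescent cells, groups that overlapped, and was not called (log2 -0.29, SE 0.12, limma adjusted p = 0.059).

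The 3 genes known for meiotic recombination, all called lower, were measurable in these cells. MND1 (GRCh38 chromosome 4, 153344649 to 153415118), which with PSMC3IP promotes the invasion of a template, was at 69.5, 218 and 278 in non-senescent and 1.25, 10.0 and 176 in senescent libraries. The senescent values were widely scattered: the highest, in library B1, lay within the non-senescent range over both batches, and 2 of the others rested on 1 and 2 reads. The log2 fold change was -3.64 (SE 0.76, limma adjusted p = 0.0011), and it became -4.35 without library B1, -3.02 without B4 and -2.39 with edgeR, which keeps the call. PSMC3IP, its partner, was at 52.3, 80.7 and 109 in non-senescent and 9.45, 19.5 and 31.9 in senescent libraries without overlap, a log2 fold change of -2.02 (SE 0.22, limma adjusted p = 1.2e-06). DMC1, the meiosis-specific recombinase, was at 39.5, 93.3 and 152 in non-senescent and 15.3, 25.4 and 73.3 in senescent libraries, with overlap across batches but not within either, and a log2 fold change of -1.33 (SE 0.26, limma adjusted p = 6.4e-04).

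Resection and RecQ helicase genes split, with 3 of 6 called lower and 1 higher. EXO1 (GRCh38 chromosome 1, 241847967 to 241895148), the exonuclease of long-range resection, was at 16.6, 19.9 and 23.0 in non-senescent and 1.21, 4.37 and 6.30 in senescent cells, from 119 and 25 reads in all. No library overlapped, and the log2 fold change was -2.22 (SE 0.36, limma adjusted p = 1.1e-04), or -1.23 with a pseudocount of 8. The helicase gene BLM was at 55.5, 62.1 and 71.5 in non-senescent and 10.3, 16.5 and 34.6 in senescent libraries, likewise without overlap (log2 -1.84, SE 0.26, limma adjusted p = 2.3e-05). RBBP8, which encodes the resection starter CtIP, was at 102, 127 and 169 in non-senescent and 28.4, 51.7 and 63.5 in senescent libraries, with a log2 fold change of -1.48 (SE 0.15, limma adjusted p = 6.9e-07). The 2 genes of the end-binding MRN complex among the members did not follow. RAD50 lay at 189, 243 and 297 in non-senescent and 179, 298 and 346 in senescent libraries (log2 0.18, SE 0.14, limma adjusted p = 0.34), and NBN had a log2 fold change of -0.12 (95% interval -0.42 to 0.18). WRN, the other RecQ helicase, was at 28.3, 40.0 and 53.4 in non-senescent and 47.1, 57.5 and 76.3 in senescent libraries, overlapping groups with a log2 fold change of 0.59 (SE 0.18, limma adjusted p = 0.014). That value barely passed the fold limit of 0.58 on the log2 scale, and fell under it or missed the p limit in 6 other processings and without any one of the non-senescent libraries A1 and B2 and the senescent libraries B1 and B2 (0.47 to 0.57).

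Among the 3 genes for structure-specific nucleases, which cut joined DNA molecules apart, EME1 was called lower. EME1 was at 13.7, 20.7 and 54.0 in non-senescent and 0, 3.67 and 9.43 in senescent libraries, the lowest of them 0 reads in library B2, which allows up to 3.15 there, and no library overlapped. Its log2 fold change was -2.68 (SE 0.38, limma adjusted p = 2.7e-05), or -1.49 with a pseudocount of 8. The catalytic partner of EME1, MUS81, did not move with it: its values were 299.6, 399 and 547 in non-senescent and 308, 411 and 447 in senescent libraries, with a log2 fold change of -0.016 (95% interval -0.21 to 0.17, limma adjusted p = 0.91). Exons of MUS81 overlap those of CFL1 on the opposite strand, and whether reads were assigned by strand is not stated in the sources used here. The scaffold gene SLX4 had a log2 fold change of -0.0073 (95% interval -0.53 to 0.52).

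In the Fanconi core complex, with UBE2T, the enzyme that hands it ubiquitin, 6 of 9 genes were called lower. FANCG, a core subunit, was at 122, 263 and 319 in non-senescent and 47.1, 65.0 and 96.1 in senescent cells. The groups were apart, by a log2 fold change of -1.77 (SE 0.14, limma adjusted p = 2.9e-08). UBE2T (GRCh38 chromosome 1, 202331544 to 202341984) was at 460.3, 552 and 757 in non-senescent and 149, 167 and 194 in senescent libraries. Here too no library overlapped, and the level was 3.32-fold lower (log2 -1.73, SE 0.12, limma adjusted p = 6.4e-09). FANCB was at 11.7, 38.4 and 50.9 in non-senescent and 6.30, 12.2 and 20.6 in senescent libraries, with overlap through the non-senescent library B3, and a log2 fold change of -1.42 (SE 0.34, limma adjusted p = 0.0032). FANCA and FANCL, the latter the ubiquitin ligase of the complex, both had a log2 fold change of -1.26 (SE 0.17 and 0.14). The anchor FANCM, from 216 reads, was called at -0.65 (SE 0.29, limma adjusted p = 0.084), a call that was lost in each batch alone, in 5 other alternatives and without any one of 7 single libraries.

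The remaining 3 core genes, FANCC, FANCE and FANCF, showed small changes. FANCE differed between batches more than between groups, with 191 and 215 in the non-senescent and 237 and 206 in the senescent libraries of batch A, and ranges of 619 to 748 and 533 to 648 in batch B. Their log2 fold changes were -0.086 for FANCE (95% interval -0.28 to 0.10), -0.062 for FANCC (-0.47 to 0.34) and 0.15 for FANCF (-0.078 to 0.38), so that none of the 3 intervals reached the fold limit. The response of the core complex genes was thus not uniform: the log2 fold changes ran from -1.77 to 0.15.

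Both genes of the FANCD2–FANCI pair, the target of the core complex, were called lower. FANCI (GRCh38 chromosome 15, 89243945 to 89317261) was at 183, 212 and 295 in non-senescent and 32.4, 48.8 and 52.5 in senescent cells. The lowest non-senescent library was over 3 times the highest senescent one, and the log2 fold change of -2.30 (SE 0.13, limma adjusted p = 4.8e-10) had the smallest adjusted p of the 52 genes, and was -2.38 in A and -2.27 in B. FANCD2 was at 43.7, 54.0 and 77.4 in non-senescent and 7.47, 19.7 and 26.3 in senescent libraries, a log2 fold change of -1.70 (SE 0.29, limma adjusted p = 1.5e-04).

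**Figure D2:**
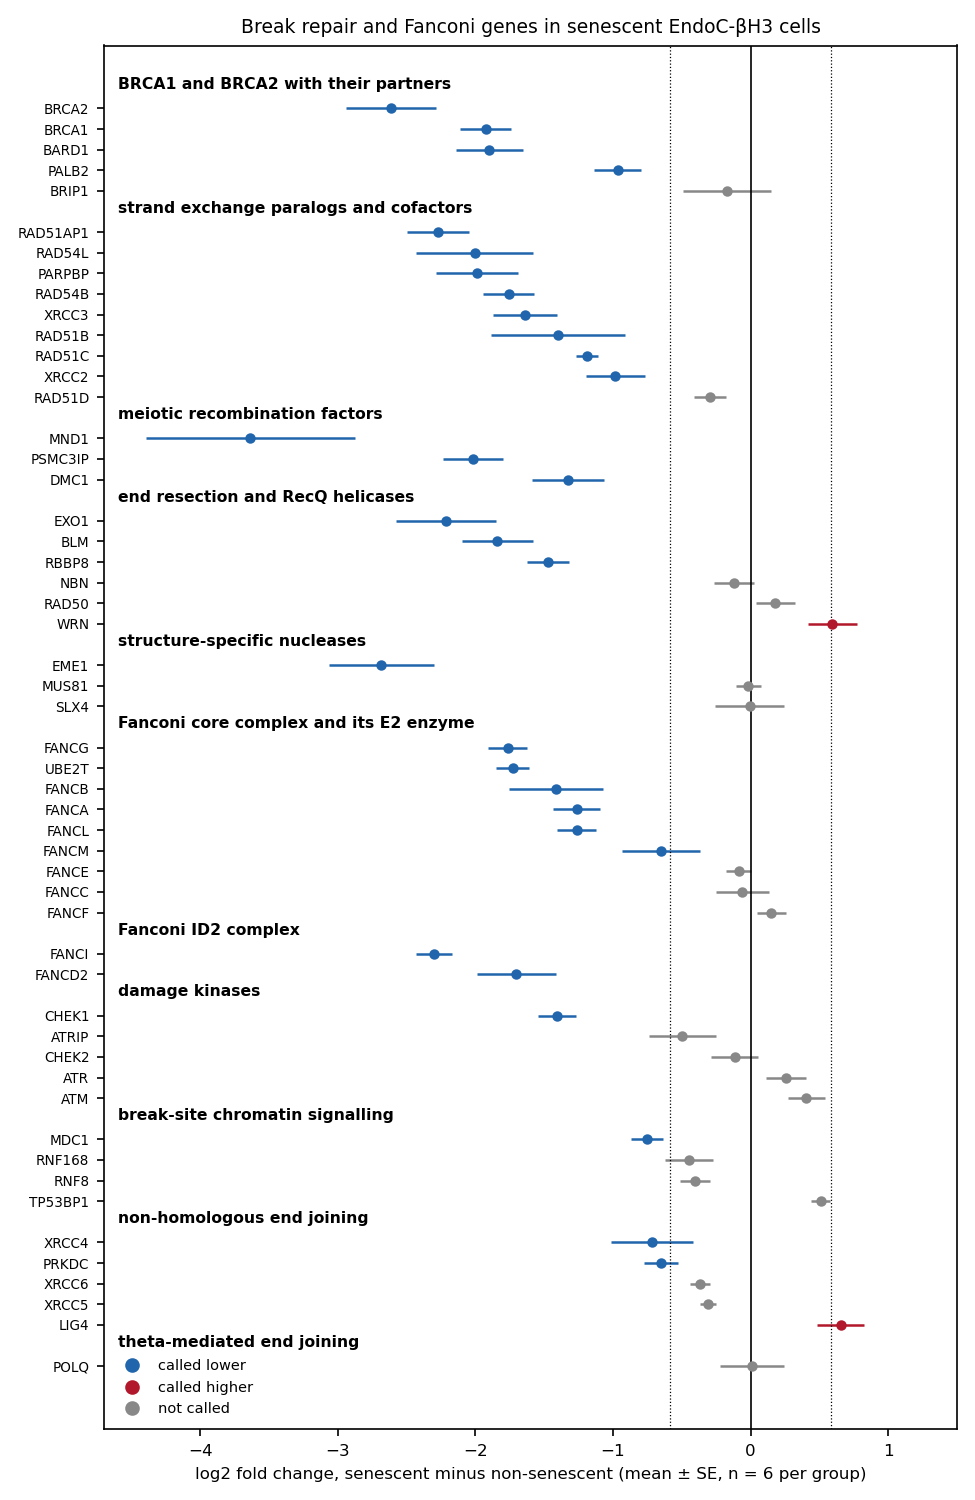
Log2 fold change, senescent minus non-senescent, of each of the 52 genes by role, as the mean with its SE from 6 libraries per group, on log2(normalised read count + 1). Blue points mark the 31 genes called lower and red points WRN and LIG4, called higher; the dotted lines are the fold limit, and the genes furthest left are MND1, EME1, BRCA2, FANCI and RAD51AP1.

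The damage kinases and their partners showed 1 call among 5 genes, against 11.8% of all genes tested called lower and 11.6% called higher. CHEK1, the effector kinase below ATR that restrains the cell cycle during replication, was at 175, 221 and 278 in non-senescent and 43.1, 93.7 and 124 in senescent cells. No library overlapped, and the log2 fold change was -1.41 (SE 0.14, limma adjusted p = 4.6e-07). Some exons of CHEK1 overlap those of STT3A on the same strand, which the counting may have had to divide. The kinase genes ATM and ATR, which sense breaks and exposed single strands, had positive values under the fold limit: ATM was at 166, 227 and 296 in non-senescent and 264, 278 and 377 in senescent libraries (log2 0.41, SE 0.13, limma adjusted p = 0.023), and ATR had a log2 fold change of 0.26 (SE 0.14, limma adjusted p = 0.17). The values of ATM overlapped between groups. ATRIP, the ATR partner, had -0.50 (SE 0.24) and CHEK2, the effector kinase below ATM, -0.12 (SE 0.17).

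Of the 4 genes of signalling in chromatin at the break, 1, MDC1, was called lower, against 11.8% of all genes tested. The other 3 had smaller changes, and not in one direction. MDC1, the first reader of phosphorylated H2AX, was lower within each batch, at 279.6 and 294 against 169 and 156 in batch A and 149 to 181 against 82.2 to 129 in batch B. Its log2 fold change was -0.75 (SE 0.12, limma adjusted p = 7.0e-05), although its exons overlap TUBB, a gene with many more reads, on the opposite strand. TP53BP1, which limits resection and favours end joining, was higher within each batch, at 889 and 935 against 1292 and 1346 in batch A and 381 to 482 against 578 to 633 in batch B. The log2 fold change of 0.51 (SE 0.071, limma adjusted p = 2.4e-05) was a 1.42-fold difference and under the limit for a call, at 0.53 in A and 0.50 in B. The ubiquitin ligase genes between them, RNF8 and RNF168, had log2 fold changes of -0.40 (SE 0.11, limma adjusted p = 0.0072) and -0.45 (SE 0.17, limma adjusted p = 0.051).

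Of 5 genes of non-homologous end joining, 2 were called lower and 1 higher, against 11.8% and 11.6% of all genes tested. XRCC4, the partner of the ligase, was at 11.9, 18.7 and 48.2 in non-senescent and 4.94, 13.0 and 20.6 in senescent cells, from 203 reads, and the groups overlapped. It was called at a log2 fold change of -0.72 (SE 0.30, limma adjusted p = 0.066), but in neither batch alone, and without the non-senescent library B3, the highest, the value was -0.53. LIG4, the ligase itself, was at 104 and 137 in non-senescent and 141 and 118 in senescent libraries of batch A, which overlapped, and at 74.5 to 140.0 and 169 to 198 in batch B, which did not. Its log2 fold change was 0.66 (SE 0.17, limma adjusted p = 0.0057), with 0.93 in batch B alone, where it was called, and 0.10 in batch A alone, 0.55 without the non-senescent library B4 and 0.55 with libraries scaled to the same total, where it was not. PRKDC, the catalytic subunit of DNA-dependent protein kinase, was at 337, 437 and 594 in non-senescent and 234, 285 and 356 in senescent libraries, a log2 fold change of -0.65 (SE 0.12, limma adjusted p = 4.2e-04) that was -1.02 in batch A alone, where it was called, and -0.47 in batch B alone and -0.58 without either the non-senescent library A2 or the senescent library A1, where it was not. The Ku genes XRCC5 and XRCC6 had slightly lower values in senescent libraries of both batches, without overlap within either: XRCC5 was at 2439 and 2428 against 1983 and 2099.9 in batch A and 1355 to 1523 against 1115 to 1159 in batch B. Their log2 fold changes of -0.31 (SE 0.057, limma adjusted p = 3.6e-04) and -0.37 (SE 0.071, limma adjusted p = 5.1e-04) were under the fold limit.

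POLQ, the polymerase of theta-mediated end joining, was at 19.6, 34.4 and 53.4 in non-senescent and 19.8, 40.5 and 47.2 in senescent libraries, with full overlap. Its log2 fold change of 0.01 had a 95% interval of -0.48 to 0.50, which stayed within the fold limit on both sides.

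**Figure D3:**
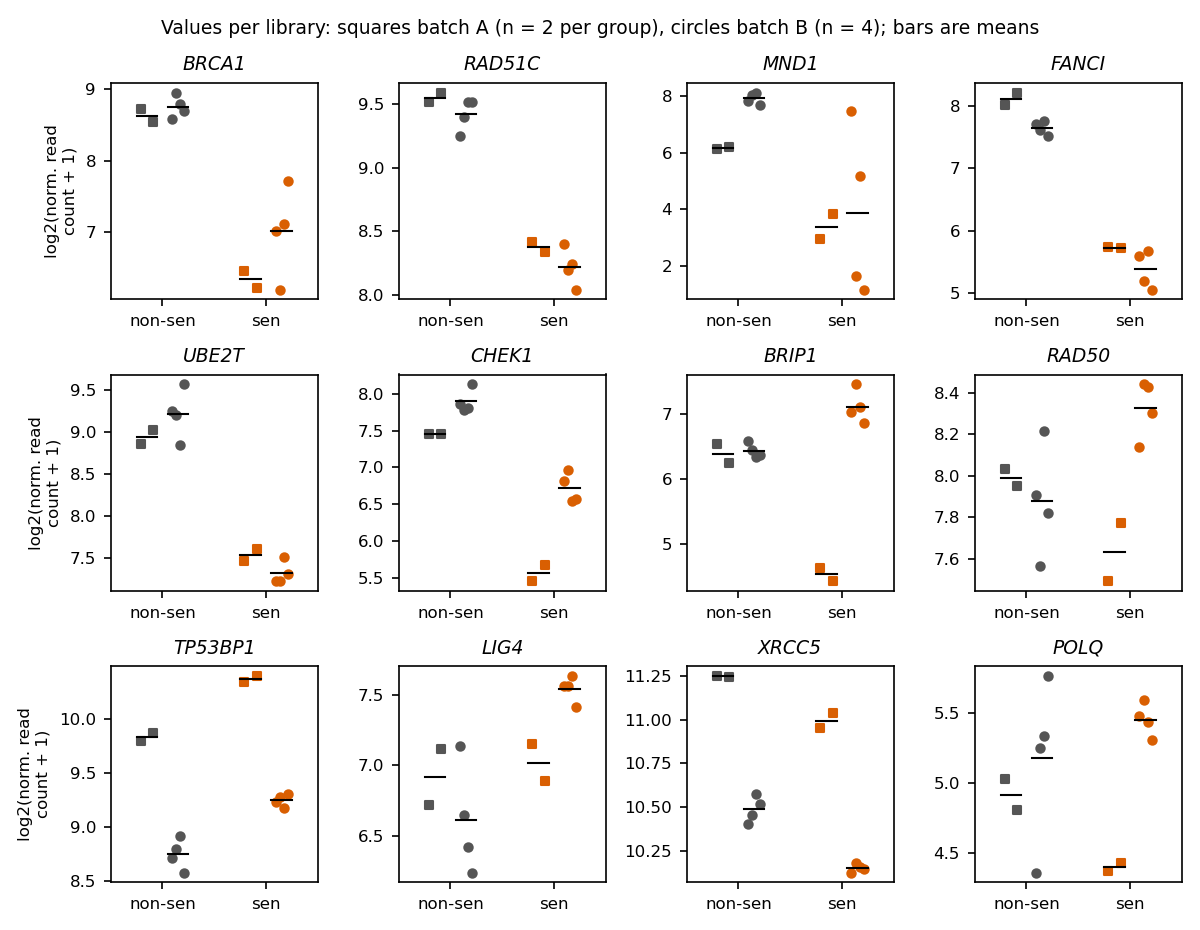
Log2(normalised read count + 1) of 12 genes in each library (vertical axes differ between genes), non-senescent in grey and senescent in orange, batch A as squares and batch B as circles, with bars at the mean of each batch. BRCA1, RAD51C, FANCI, UBE2T and CHEK1 show no overlap, MND1 shows senescent library B1 near the non-senescent level, and BRIP1 lies below the non-senescent values in batch A and above them in batch B.

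Most of the genes had the same direction of response in batches A and B: 39 of the 52 had a negative log2 fold change in both, against 34.6% of all genes, while 6 had a positive one in both, against 35.8%. In batch A alone 32 genes were called lower, against 11.4% of all genes, and in batch B alone 28, against 12.1%. Tested as an interaction at an adjusted p under 0.1, the response differed between batches for 2 of the 52 genes, against 4.21% of all genes. BRIP1 (GRCh38 chromosome 17, 61679139 to 61863559) was the larger. It was at 92.3 and 74.7 in the non-senescent and 23.8 and 20.5 in the senescent libraries of batch A, and in batch B at 80.4 to 94.9 and 116 to 175. The senescent libraries therefore lay below the controls in batch A and above them in batch B, with log2 fold changes of -1.86 and 0.68, each called in its batch alone. The difference between batches was 2.54 (SE 0.28, limma adjusted p = 1.5e-04), and it stayed between 2.23 and 2.69 and under the p limit in all alternatives run for it. The reads behind these values were 166 and 94 in non-senescent and 53 and 34 in senescent libraries of batch A, and 55 to 66 and 93 to 167 in batch B. No annotated exon of another protein-coding or long non-coding RNA gene overlaps those of BRIP1.

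RAD50 was the other gene with an interaction. Its values were 261 and 246 against 179 and 217 in batch A, and 189 to 297 against 281 to 346 in batch B, where the groups overlapped. The log2 fold changes were -0.36 and 0.45, and their difference of 0.81 (SE 0.23, limma adjusted p = 0.084) lost its call with the replicate block (adjusted p = 0.14) and without most single libraries. CHEK2 was called lower in batch A alone, at 79.5 and 64.4 against 44 and 41.7, while its ranges in batch B were 89.5 to 125 and 109 to 157. The difference between its log2 fold changes of -0.73 and 0.19 was not called (limma adjusted p = 0.12).

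**Figure D4:**
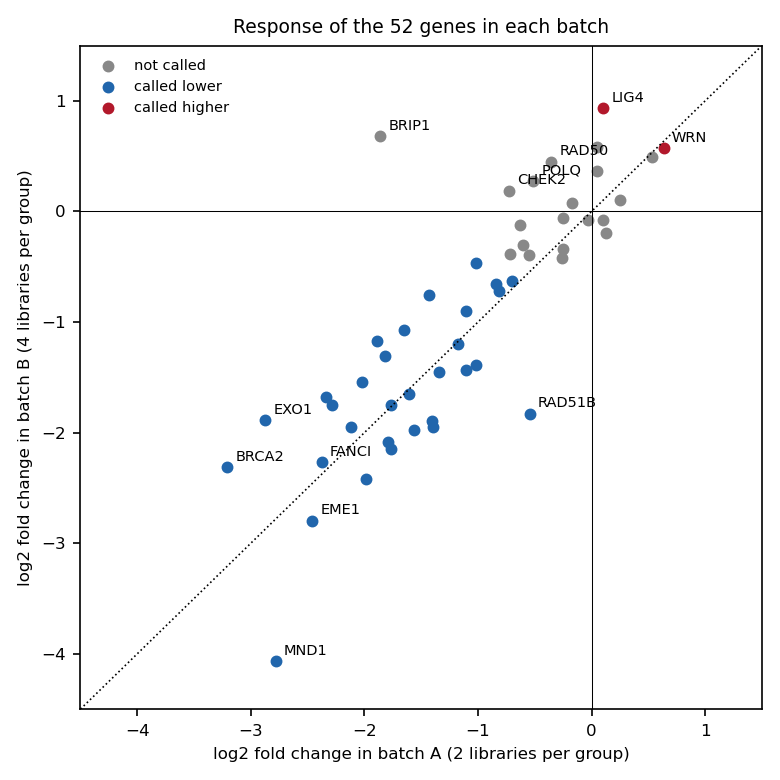
Log2 fold change of the 52 genes in batch A (horizontal, 2 libraries per group) against batch B (vertical, 4 libraries per group), with the line of equal response dotted. Most points lie near the line in the lower left, from MND1 at -2.78 and -4.06 upwards, and BRIP1 lies farthest from it, at the upper left.

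Of the 52 genes, 13 belong to the Hallmark list of E2F targets, a list that also holds genes of mitosis. Of these 13, 9 were called lower and 4 were not called, with a median log2 fold change of -1.41. The other 39 genes included 22 called lower and 2 higher, with a median of -0.75, so the decrease was not limited to the genes of that list. In the whole E2F list 141 of 194 tested genes were called lower and 0 higher, against 11.8% and 11.6% of all genes, with a median of -1.15. The list was led by ESPL1 (-3.36), MYBL2 (-3.29) and KIF2C (-3.21), genes of mitosis and of the cell cycle program. At an unadjusted p under 0.05 in limma 2 E2F genes were higher, and edgeR and DESeq2 called 0 and 0 higher.

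Other repair genes were counted for comparison, beside 11.8% of all genes tested called lower and 11.6% called higher. Of 67 further genes of break repair and the Fanconi pathway, 27 were called lower and 1 higher, with a median log2 fold change of -0.33. Among the larger log2 fold changes were those of SLX1A (2.48, SE 1.04) and SLX1B (-2.47, SE 1.04), nearly identical copies between which reads may be divided arbitrarily, so that their opposite directions are uncertain. In base excision and single-strand break repair, 10 of 22 genes were called lower and 0 higher, with a median of -0.58, and the leading ones were NEIL3, a glycosylase (-2.74), PARP2, a sensor of nicks (-1.18), and UNG, which removes uracil (-1.03). In this list 0 genes were higher at an unadjusted p under 0.05 in limma, and edgeR and DESeq2 called 0 and 0 higher. Of 7 mismatch repair genes 2 were called lower, with a median of -0.17. Nucleotide excision repair had 0 genes called lower and 1 higher of 23 tested, UVSSA at 0.60, with a median of 0.015; 3 of its genes were lower at an unadjusted p under 0.05 in limma, and edgeR and DESeq2 called 0 and 0 lower. The median shift was therefore largest in the E2F list and the 52 genes, which share 13 genes, and nearest to that of all genes in nucleotide excision repair. The further break repair genes had a smaller median shift (-0.33) than those of base excision and single-strand break repair (-0.58). A large shift was thus not common to all break repair genes. Differences between these lists were not tested.

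**Figure D5:**
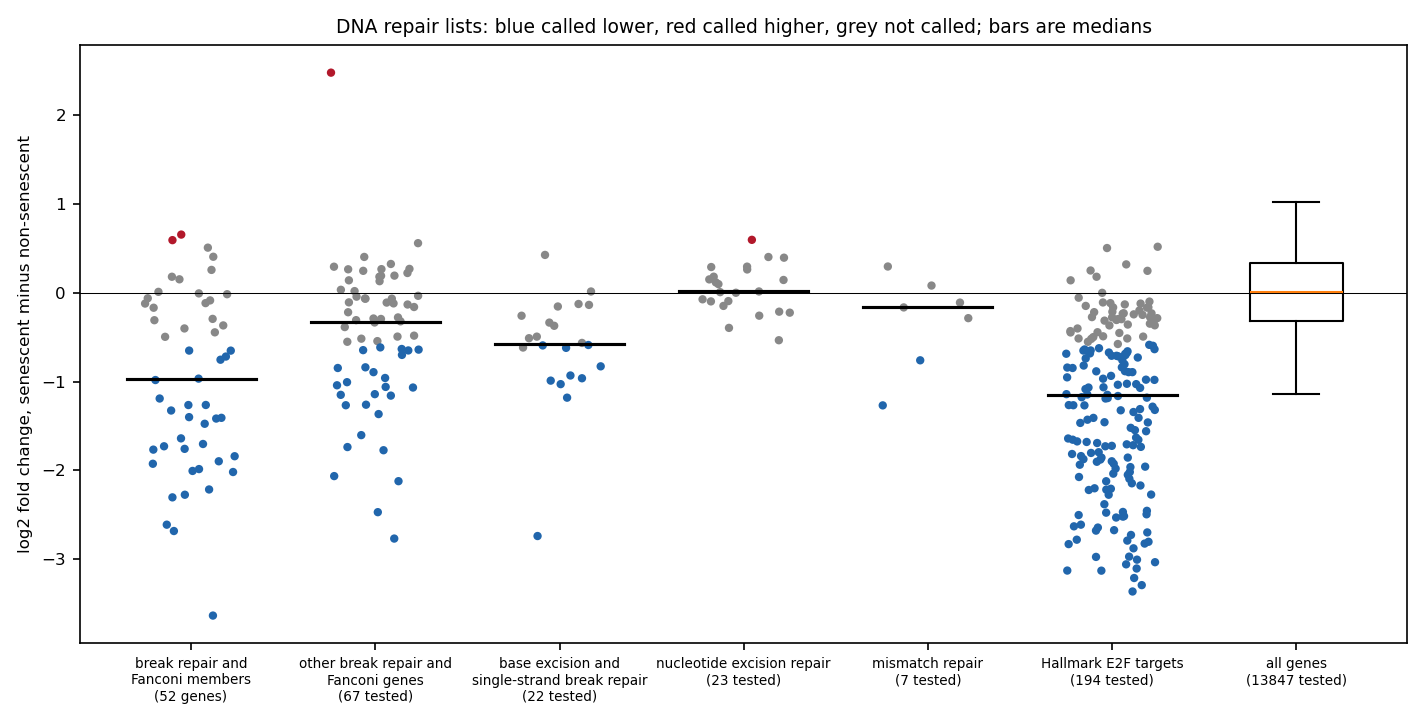
Log2 fold change, senescent minus non-senescent, of single genes (points) in the 52 break repair and Fanconi genes and 5 other lists, with list medians as bars, beside a box plot of all 13847 genes tested (box from the lower to the upper quartile, whiskers from the 5th to the 95th percentile). The medians are -0.98 for the 52 genes, -0.33, -0.58, 0.015 and -0.17 for the 4 other repair lists in the order drawn, -1.15 for E2F targets and 0.012 for all genes.

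Annotation limits apply to some values. Among protein-coding and long non-coding RNA genes, exons of 28 of the 52 genes overlap one on the opposite strand and exons of 9 one on the same strand, while 17 overlap none. Overlaps with other types of gene were not searched. For 7 genes an overlapping gene found in the table had more reads than the gene itself: MUS81, MDC1 and CHEK1, described above, XRCC3 (715 reads, and 5482 for KLC1), PSMC3IP (685, and 4127 for MLX), RAD54L (143, and 1569 for LRRC41) and EME1 (240, and 1164 for LRRC59), the last 4 with the overlapping gene on the opposite strand. Pseudogenes named after 6 of the genes are annotated, and the table had 3 reads for that of RAD51AP1 and 4 for those of CHEK2.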

How the data were processed

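Poly(A) RNA of 6 senescent and 6 non-senescent EndoC-βH3 libraries was measured by CEL-seq2. Per the labels and the study's methods, the authors used Cutadapt for trimming, Salmon 0.13.1 with GRCh38 for quantification, and DESeq2, with a batch correction, for normalisation and testing. The deposited values are a signal, reads divided by one size factor per library. Non-zero values were whole multiples of the smallest value of their column (100% of 196021, relative tolerance 1e-06), so whole reads were recovered. The handling of molecular identifiers and of strand is not given in the sources used here; floors (3 reads, or 0.175 to 0.642 ppm of a library) cover counting error only. The 6 columns of the authors' own comparison, with fold changes, their errors and p-values, were not used.

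limma 3.58.1 in R 4.3.3 was run with the intensity trend on log2(normalised read count + 1), with batch and group, for 13847 genes with a mean of at least 5. Calls needed a Benjamini-Hochberg adjusted p under 0.1 over all genes and a fold change over 1.5, and batch responses were compared by an interaction at the same p limit. Fold changes on this scale understate the change of low genes. On simulated data 90.5% of 200 changed genes (log2 change 1.5) were called and 96.3% of calls were changed genes. Alternatives varied the pseudocount, filter, scaling, batch term, tool (edgeR 4.0.16 and DESeq2 1.42.0 on the recovered reads) and libraries. Same-numbered libraries of the 2 groups did not deviate together (correlations -0.051 to 0.016), so numbers were not treated as pairs. The 52 genes and all lists were chosen with earlier results of these data known. The rule for named genes took, per role, the 3 called genes with the largest change and the uncalled gene with the highest mean, and per other list the 3 called genes with the largest change; MKI67, PCNA and single marker genes were named for their role. Of 69 further break repair genes, 5 older symbols were matched through RefSeq synonyms. Positions are from GENCODE v44. Single results of some genes that this rule names are not reported here.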

Additional observations from a re-analysis of the deposited data

Results flagged for a closer look

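Single libraries stood apart from the rest of their group in 13 of 208 groups of values examined (each gene and group over 6 libraries, and over the 4 of batch B), where chance gives about 5 in 100. In non-senescent cells these were BARD1 at 46.8 and FANCB at 11.7 normalised read counts, both the lowest and both in library B3, WRN at 28.9, the lowest of batch B in B2, PARPBP at 78.3, the highest of batch B in B1, and ATR at 55.9, the highest of batch B in B4. In senescent cells library B2 was the highest of batch B for BLM (34.6), MUS81 (447) and CHEK2 (157) and the lowest of all 6 for SLX4 (17.8). Senescent library B1 was the lowest of batch B for EXO1 (1.21, or 1 read) and XRCC6 (361), B4 was the lowest for FANCD2 (7.47) and B3 the highest for FANCL (95). BARD1, PARPBP, EXO1, BLM, FANCB, FANCL and FANCD2 were called lower in each fit that left out a single library.

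The senescence response differed between batches for BRIP1, by 2.54 on the log2 scale (batch B minus batch A, SE 0.28, limma adjusted p = 1.5e-04), and for RAD50, by 0.81 (SE 0.23, limma adjusted p = 0.084). The RAD50 call was lost with the replicate block (limma adjusted p = 0.14) and in fits without single libraries. Batch A libraries were the more deeply sequenced, and reads of BRIP1 numbered 34 or more in each library. The cause of the batch differences was not tested.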

How the results depend on the processing

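Against 31 genes called lower as reported, 25 to 32 were called under the 15 alternatives, the fewest with a mean of at least 20 required, and 29 to 31 when 1 library was left out. The count of genes called higher, 2 as reported, was 1 with a pseudocount of 8, upper quartile scaling, no batch term, batch A alone, array weights or libraries thinned to the smallest total (chosen after seeing the data), 0 with the same total, 3 in batch B alone (BRIP1, ATM and LIG4), and 1 to 2 without single libraries. WRN was the call lost with the pseudocount, upper quartile scaling, no batch term and thinning, and LIG4 that lost with array weights (0.51). Over all genes, 1037 were called higher without the batch term, against 1605.

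The replicate block left 30 of the 31 lower calls (FANCM was lost) and gave 356 genes and 1 member with a batch difference, against 583 and 2. Only 1 of 6 senescent libraries correlated best with the non-senescent library of its number. Whether the numbers pair the samples is not known. Batch differences numbered 169 to 743 genes and 1 to 2 members without single libraries. Each batch A library mattered: the counts were 261 and 175 without the non-senescent A1 and A2, and 183 and 169 without the senescent A1 and A2, which leaves 1 library in that arm, assumed to vary like the others.

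BRIP1 and RAD50, whose responses differed between batches, changed sign in batch B alone (0.68) and in batch A alone (-0.36). Among other genes with values near 0, MUS81 changed sign in batch A alone (0.10), with array weights (0.015) and thinned (0.016). SLX4 did so in batch B alone (0.076) and with DESeq2 (0.0039), and FANCC when thinned (0.011). FANCE changed sign in batch A alone (0.12) and CHEK2 in batch B alone (0.19). POLQ did so with the same total (-0.093), batch A alone (-0.52), array weights (-0.15), edgeR (-0.076), DESeq2 (-0.071) and thinned (-0.10). Without single libraries BRIP1 ranged from -0.33 to 0.081, MUS81 from -0.053 to 0.053, SLX4 from -0.12 to 0.19, FANCC from -0.15 to 0.056 and POLQ from -0.19 to 0.11. In batch A alone, RAD51D (-0.63) and RNF8 (-0.60) were called lower, in batch B alone ATM (0.59) was called higher, and with the same total, or without the non-senescent library B4, ATRIP was called lower. In the other lists, the higher gene of break repair was lost with the stricter filter and edgeR (0 for both), and nucleotide excision repair had 1 gene lower and 0 higher with the same total and 0 higher with a pseudocount of 8. The causes were not tested. RAD54L, EXO1, RAD51B, XRCC4, FANCM, ATRIP and EME1 had under 250 reads in all; of these, RAD54L, EXO1 and EME1 kept their calls in the 14 alternatives run for them and without any single library.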
